A study of Rattus norvegicus with 48 samples.

Results

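Stressed and non-stressed rats of the vinclozolin lineage were compared in CA1, the output field of the hippocampus, with 3 arrays in each group. These 6 arrays were chosen by the area, stress and lineage given in their labels, out of 48 arrays over 4 brain areas. The rats were F3 Sprague-Dawley males, aged 120 days. The vinclozolin lineage (Vin) descended from pregnant F0 females injected intraperitoneally with vinclozolin, a fungicide that blocks the androgen receptor, at 100 mg/kg/day on embryonic days 8 to 14. The control lineage (Con) descended from females given DMSO, the vehicle. F3 animals received no injection. Stressed animals (St) were restrained for 6 hours a day on 21 days, from postnatal day 23 to 43, and non-stressed animals (NSt) were not restrained. Every rat shared its cage with a rat of the other lineage for the whole study, so each St-Vin pool has a St-Con pool of cage mates and each NSt-Vin pool a NSt-Con pool. All rats were also handled and tested for behaviour before their brains were taken. RNA from punches of 2 mm was pooled from 4 rats per array, so spread between arrays is spread between pools and not between animals. NSt-Vin pools came from dyad groups 1 to 3 and St-Vin pools from dyad groups 4 to 6, and no pool occurs in both groups.

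CA1 pyramidal cells receive input from CA3 and send it on to the subiculum and cortex. They carry both corticosteroid receptors, the mineralocorticoid receptor Nr3c2 and the glucocorticoid receptor Nr3c1, and repeated restraint is a standard way to raise corticosterone in young rats. Inside the tissue, the enzyme Hsd11b1 turns inert 11-dehydrocorticosterone back into corticosterone, and genes such as Fkbp5, Mt2A, Sgk1 and Tsc22d3 are known targets of the activated receptor. The brains were taken long after the last restraint, so these values describe adults with a history of stress and not an acute response.

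Values are log2 signals, on which a difference of 1 is a 2-fold difference. St-Vin arrays were scanned on day 4 and NSt-Vin arrays on day 3, so stress and scan day cannot be told apart in any St-Vin minus NSt-Vin difference in CA1. The labels give 1 RNA preparation day for all 12 CA1 arrays. The third St-Con array equals the mean of the other St-Con arrays within rounding and was left out, which leaves 11. The lowest correlation between any pair of these arrays was 0.975. The median SD of a probe set between pools was 0.0833 in NSt-Vin and 0.0721 in St-Vin. Array medians were 7.17, 7.11 and 7.14 in NSt-Vin and 7.11, 7.13 and 7.11 in St-Vin. Genes of choroid plexus, the secretory tissue of the ventricles, stood high in NSt-Con 2 and NSt-Con 3, which enter here only through the shared estimate of spread and the control-lineage comparison. The label CA1 was checked against markers. Wfs1, a CA1 marker, had a median of 10.01 in CA1 against 7.74 in motor cortex, and Fibcd1 7.98 against 6.78. In the CA3 punches of this series the medians of both were higher (10.32 and 8.36). The CA1 markers Pou3f1 (8.105 in CA3 against 7.28 in CA1) and Mpped1 (9.68 against 9.19) were higher there too. These markers therefore do not bear out the label CA1 against CA3. The CA1 punches in turn held Grik4 of CA3 (8.53, against 9.01 in CA3 punches and 7.38 in motor cortex). They also held Prox1 of dentate granule cells (7.74, against 5.66 in motor cortex). Markers of neighbouring hippocampal fields were thus present in the punches labelled CA1.

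Stress in the vinclozolin lineage was accompanied mainly by lower transcript levels in CA1. Hsd11b1, the metallothionein Mt2A, the astrocyte genes Prodh, Htra1 and Acsbg1, the GABA receptor subunit Gabrg1 and the membrane-binding protein Anxa6 fell, by 0.31 to 1.01. The relaxin receptor Rxfp1 and the secreted factors Igfbp5 and Tgfb2 rose, by 0.70 to 0.85. Of 27342 probe sets, 138 (0.505%) passed limma at an adjusted p under 0.05, adjusted over all probe sets by the Benjamini-Hochberg method. Of these, 26 (0.0951%) were higher and 112 (0.41%) lower in St-Vin, so 18.8% were higher. This split depends on scaling: 43.2% of 44 calls were higher after quantile normalization and 75% of 4 after centring each array on its median. Adjusted p-values of the 138 ran from 0.0447 to 0.0497, close to the threshold. At an unadjusted p under 0.05, 5275 probe sets (19.3%) passed, and St-Vin and NSt-Vin arrays did not overlap in 6903 (25.2%). All 138 calls are among the 6903, so groups that stand apart are no further support for a call. The count of calls hung on single arrays. It was 0 without NSt-Vin 1, 0 without NSt-Vin 2, 0 without NSt-Vin 3, 1 without St-Vin 1, 0 without St-Vin 2 and 272 without St-Vin 3. Fitting only the 6 arrays gave 0 calls and 5684 probe sets at an unadjusted p under 0.05. The direction of all 138 was the same in each of these fits. That was fixed in advance, since the groups did not overlap in any of the 138. Of the 138, 77 have 1 gene symbol (10 higher, 67 lower), 1 has several and 60 have none.

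**Figure D1:**
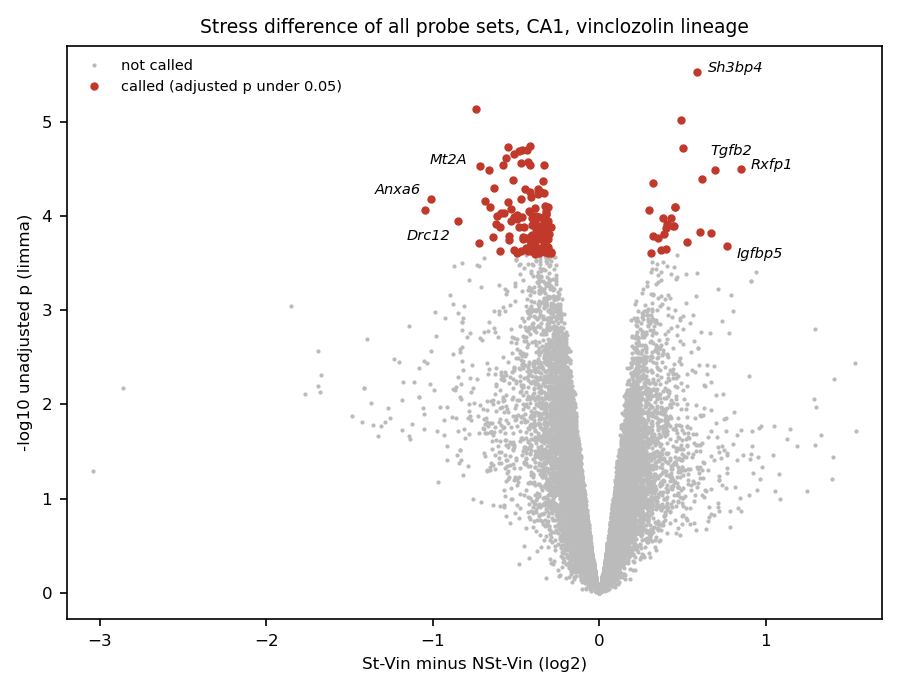
Each point is 1 of 27342 probe sets. The x axis is the St-Vin minus NSt-Vin difference in CA1 (log2) and the y axis the negative log10 of limma's unadjusted p. Red points are the 138 called probe sets, 112 on the left (lower after stress) and 26 on the right, and the far left point near -3.04 is Ttr, which was not called.

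Hsd11b1 and Mt2A, both genes of glucocorticoid action, fell. Hsd11b1 measured 9.25, 9.48 and 9.50 in NSt-Vin arrays 1 to 3 and 8.79, 8.73 and 8.97 in St-Vin arrays 1 to 3. Every stressed pool lay below every non-stressed pool, with a difference of -0.58 ± 0.084 (SE, n = 3 and 3, limma adjusted p = 0.0447). Mt2A, a metallothionein that binds zinc and copper, was covered by 2 probe sets, and both passed. The first measured 9.74, 9.78 and 9.85 in NSt-Vin and 9.06, 9.01 and 9.15 in St-Vin, a difference of -0.72 ± 0.10 (adjusted p = 0.0447). The second gave -0.59 ± 0.097 (adjusted p = 0.0450). Neither probe set showed overlap between the groups, and St-Vin 2 was the lowest pool for both, as it was for Hsd11b1. Because metallothionein genes are near-identical, part of the signal of one may come from another.

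The remaining receptors and targets were mixed. Of 23 measured genes in this list, 15 were lower and 8 higher, beside 55.3% lower and 43.7% higher among all probe sets. The list median was -0.093 against -0.02 for all probe sets. Hsd11b1 and Mt2A were its only members past the threshold, and 8 members were lower without overlap between groups, a state found in 16.5% of all probe sets. Counts of calls in this and all later lists stand beside 0.505% called among all probe sets. A list with 0 calls is near that share. Fkbp5, the chaperone that dampens receptor signalling, measured 8.61, 8.86 and 8.87 in NSt-Vin and 7.96, 7.84 and 8.41 in St-Vin. Its groups stood apart, but its difference of -0.71 ± 0.15 missed the threshold (limma adjusted p = 0.0641). The glucocorticoid receptor gene Nr3c1 had 9.63, 9.40 and 9.22 against 10.07, 9.88 and 9.51, higher on average by 0.40 ± 0.18 with overlapping groups (adjusted p = 0.260). The mineralocorticoid receptor gene Nr3c2 had a difference of -0.45 ± 0.24 (adjusted p = 0.332), which lay between -0.69 (without NSt-Vin 1) and -0.275 (without St-Vin 1) when 1 array was left out. Sgk1, a kinase induced by corticosteroids, was higher in all St-Vin pools (0.23 ± 0.090, adjusted p = 0.204), and Tsc22d3 lower in all (-0.13 ± 0.067, adjusted p = 0.311). The list therefore held members on both sides of 0.

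The plot of 12 genes by array places these values beside those of the control lineage.

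**Figure D2:**
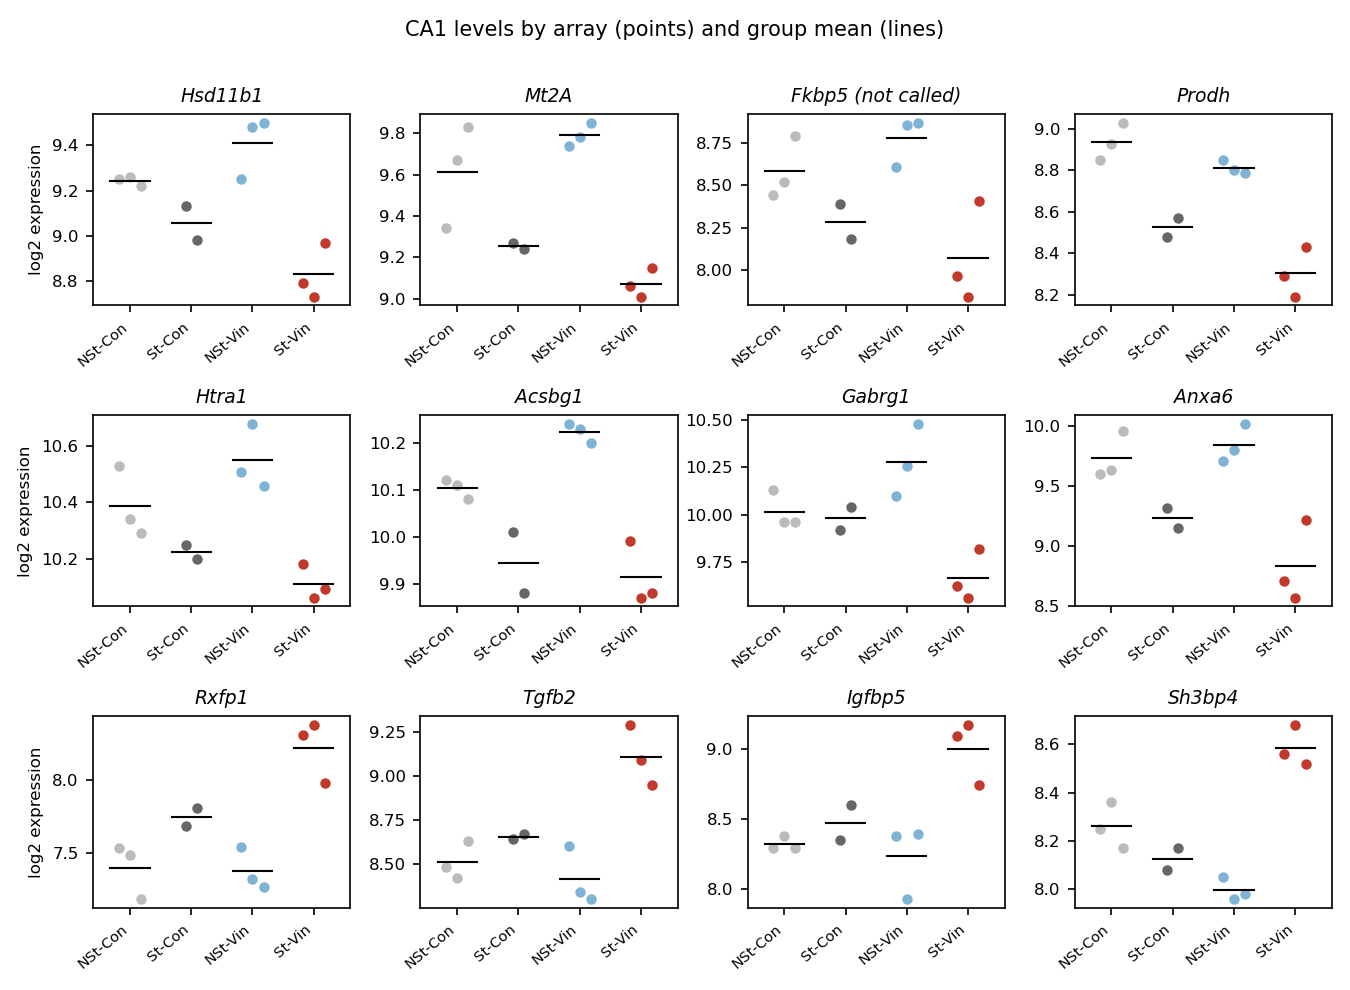
Each panel shows the log2 level of 1 gene (y axis, own scale) in the 11 CA1 arrays by group (x axis), with points for arrays and lines for group means; Mt2A is its first probe set. In all 12 genes the 3 St-Vin points lie on one side of the 3 NSt-Vin points, and all but Fkbp5 were called.

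The metallothioneins sit side by side on chromosome 19, and the promoters of Mt1, Mt2A and Mt3 are shown because their transcripts were lower in St-Vin to different degrees. Mt1 had differences of -0.43 ± 0.11 and -0.23 ± 0.084 in its 2 probe sets (limma adjusted p = 0.0919 and 0.180). Mt3, the form made mainly in the brain, had -0.25 ± 0.056 (adjusted p = 0.0745). Neither gene passed. The windows hold 250 bases before and 50 after each start in RefSeq's table for GRCr8, on the minus strand, at chr19:10832926-10833225 (Mt1), chr19:10838659-10838958 (Mt2A) and chr19:10856031-10856330 (Mt3). Capitals mark the core of the metal response element, searched on both strands as TGCACNC or TGCGCNC, a motif chosen after the values had been seen.
Mt1: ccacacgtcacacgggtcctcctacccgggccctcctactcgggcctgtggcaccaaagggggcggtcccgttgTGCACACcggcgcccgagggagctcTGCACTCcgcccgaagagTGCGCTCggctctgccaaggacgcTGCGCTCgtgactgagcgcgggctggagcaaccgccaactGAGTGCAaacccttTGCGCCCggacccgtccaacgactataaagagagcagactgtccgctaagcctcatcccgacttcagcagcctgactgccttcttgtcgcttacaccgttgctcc
Mt2A: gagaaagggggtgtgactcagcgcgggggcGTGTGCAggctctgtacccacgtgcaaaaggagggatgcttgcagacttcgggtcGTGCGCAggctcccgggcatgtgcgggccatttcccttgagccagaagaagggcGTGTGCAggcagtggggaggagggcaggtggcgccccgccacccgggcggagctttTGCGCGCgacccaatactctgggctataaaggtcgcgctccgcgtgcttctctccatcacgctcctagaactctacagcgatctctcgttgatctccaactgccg
Mt3: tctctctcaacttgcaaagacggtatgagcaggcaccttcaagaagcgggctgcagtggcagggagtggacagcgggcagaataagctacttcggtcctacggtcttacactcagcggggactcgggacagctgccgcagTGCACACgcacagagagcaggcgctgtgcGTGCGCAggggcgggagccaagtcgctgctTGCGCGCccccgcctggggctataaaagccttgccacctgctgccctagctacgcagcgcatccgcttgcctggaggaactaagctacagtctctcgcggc
The Mt1 window held 6 matches, Mt2A 4 and Mt3 3. Among 33469 promoters of this length, 24.2% held at least 1 match, 0.0388% held 6 or more, 0.439% 4 or more and 1.68% 3 or more. The order of matches is not the order of the stress differences, which were larger for Mt2A than for the other members.

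Among astrocyte genes, Prodh, Htra1 and Acsbg1 fell. All 18 measured markers had lower means in St-Vin, with a median of -0.175, and 12 of them did not overlap between groups, beside 55.3% below 0 and 16.5% lower without overlap among all probe sets. Of the 18, 3 passed the threshold, beside 0.505% of all probe sets. The direction was not particular to this lineage. In the control lineage the list mean was 9.93 and 9.92 in St-Con against 10.02, 10.08 and 10.04 in NSt-Con. Prodh, the mitochondrial proline dehydrogenase, measured 8.85, 8.80 and 8.79 in NSt-Vin and 8.29, 8.19 and 8.43 in St-Vin (-0.51 ± 0.071, limma adjusted p = 0.0447). The NSt-Vin pools were almost alike and all St-Vin pools lay well below them. Htra1, a secreted serine protease, fell from 10.51, 10.68 and 10.46 to 10.18, 10.06 and 10.09 (-0.44 ± 0.078, adjusted p = 0.0460). Acsbg1, which activates long-chain fatty acids, fell from 10.24, 10.23 and 10.20 to 9.99, 9.87 and 9.88 (-0.31 ± 0.055, adjusted p = 0.0460). When 1 array was left out in turn, Prodh passed in 1 fit and Htra1 and Acsbg1 in 0. Agt (angiotensinogen, -0.53 ± 0.15), the growth factor receptor gene Fgfr3 (-0.34 ± 0.074) and the connexin gene Gjb6 (-0.33 ± 0.071) were lower in every St-Vin pool without passing (adjusted p = 0.118, 0.0721 and 0.0692). Gfap, the filament protein of astrocytes, had overlapping groups (-0.34 ± 0.11, adjusted p = 0.147), and the glutamate transporter gene Slc1a2 differed by -0.087 ± 0.057 (adjusted p = 0.429). In bulk tissue, fewer cells of a type and less RNA per cell cannot be told apart.

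Genes of synaptic and modulatory receptors were among those that fell. Gabrg1, a GABA-A receptor subunit, measured 10.10, 10.26 and 10.48 in NSt-Vin and 9.62, 9.56 and 9.82 in St-Vin. Its stressed pools were all below its non-stressed pools (-0.61 ± 0.10, limma adjusted p = 0.0450). Nlgn1, a postsynaptic adhesion protein of excitatory synapses, measured 9.14, 9.18 and 9.22 against 8.62, 8.63 and 8.93 (-0.45 ± 0.078, adjusted p = 0.0450). The adrenergic receptor gene Adra1d (-0.42) and the adenosine receptor gene Adora2b (-0.39) also passed. Gabrg1 was the only called gene among 17 GABA genes, of which 11 were lower and 6 higher, with a median of -0.11. Gad1 and Gad2, the enzymes that make GABA, were lower in every St-Vin pool by 0.29 on average (adjusted p = 0.0929 and 0.134). Gabra2 stood at -0.85 ± 0.24 (adjusted p = 0.118) and Gabra3 at 0.98 ± 0.43 (adjusted p = 0.251), so receptor subunits did not share a direction. Nlgn1 was the only call among 23 postsynaptic scaffold genes (11 higher, 12 lower, median -0.0033). No gene passed among 33 genes of synaptic vesicles and release (20 higher, 13 lower, median 0.11), beside 0.505% of all probe sets.

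Other genes that fell were Prdx6 and Etfb. Prdx6, a peroxiredoxin that reduces lipid peroxides, measured 9.85, 10.19 and 10.16 in NSt-Vin and 9.44, 9.34 and 9.63 in St-Vin (-0.60 ± 0.10, limma adjusted p = 0.0450). Etfb, which passes electrons from fatty acid and amino acid oxidation to the respiratory chain, measured 8.38, 8.39 and 8.44 against 7.81, 7.62 and 8.06 (-0.57 ± 0.094, adjusted p = 0.0450). Neither gene had overlapping groups. Coq9 of ubiquinone synthesis (-0.31), Eci2 of fatty acid oxidation (-0.33) and Crot, a peroxisomal acyltransferase (-0.33), were called too. Among 67 subunits of oxidative phosphorylation, 62 were lower and 5 higher (median -0.107), and 20 were lower without overlap, beside 55.3% below 0 and 16.5% lower without overlap among all probe sets. None passed, the closest by p being Ndufab1 (-0.44 ± 0.096, adjusted p = 0.0728). The control lineage went the same way, with list means of 9.995 and 9.896 in St-Con against 10.065, 10.004 and 10.036 in NSt-Con. Of 29 chaperones and genes of the unfolded protein response, 21 were lower in St-Vin and 10 of these did not overlap (median -0.063), beside the same shares of all probe sets. The small heat shock protein gene Hspb1 had the lowest difference of that list (-0.62 ± 0.18, adjusted p = 0.129), and no member was called. Cytosolic ribosomal protein genes lay near all probe sets (28 higher and 39 lower of 68, median -0.018).

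Among called probe sets with 1 symbol, the lowest difference was that of Anxa6, an annexin that binds membranes in the presence of calcium. It measured 9.71, 9.80 and 10.02 in NSt-Vin and 8.71, 8.57 and 9.22 in St-Vin (-1.01 ± 0.16, limma adjusted p = 0.0450), with St-Vin 3 nearest to the non-stressed pools. Eif4e3, a cap-binding translation factor, measured 8.68, 8.54 and 8.96 against 7.91, 7.97 and 8.25 (-0.68 ± 0.11, adjusted p = 0.0450). Kng1, the kininogen precursor of bradykinin, measured 7.61, 7.68 and 7.35 against 6.93, 7.14 and 6.79 (-0.59 ± 0.11, adjusted p = 0.0495). In each of these the groups stood apart. Smaller falls included the angiopoietin gene Angpt1 (-0.54), the secretase gene Bace2 (-0.49), the phosphatase gene Dusp4 (-0.41), the cyclophilin gene Ppid (-0.41), the cytokine gene Il15 (-0.36), the transcription factor gene Lhx2 (-0.35) and the telomerase gene Tert (-0.33).

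The genes that rose with 1 symbol numbered 10. Rxfp1, the receptor of relaxin, measured 7.54, 7.32 and 7.26 in NSt-Vin and 8.31, 8.38 and 7.98 in St-Vin (0.85 ± 0.12, limma adjusted p = 0.0447). Igfbp5, which binds insulin-like growth factors, measured 8.38, 7.93 and 8.39 against 9.09, 9.17 and 8.74 (0.77 ± 0.14, adjusted p = 0.0495). Tgfb2, a ligand of the transforming growth factor family, measured 8.60, 8.34 and 8.30 against 9.29, 9.09 and 8.95 (0.70 ± 0.10, adjusted p = 0.0447). All St-Vin pools were above all NSt-Vin pools in the 3 genes, as groups stood apart in every called probe set. Sh3bp4, a trafficking protein, had the smallest p of all probe sets and measured 8.05, 7.96 and 7.98 against 8.56, 8.68 and 8.52 (0.59 ± 0.066, adjusted p = 0.0447). Ass1, which makes argininosuccinate in arginine synthesis (0.45 ± 0.073), Myocd, a cofactor of serum response factor (0.33 ± 0.049), and the orphan receptor gene Gpr139 (0.31 ± 0.057) also rose. The other named genes that rose, Or6c207 (0.51), Or2d3c (0.49) and Or8j3b (0.35), are olfactory receptors, measured between 5.27 and 6.87. Those levels lay below 7.14, the median level of all probe sets. Olfactory receptors made up 7 of the 77 called symbols (9.09%), beside 7.07% of all probe sets with 1 symbol. They were 3 of the 10 higher calls with 1 symbol and 4 of the 67 lower ones (5.97%). This difference in share was not tested.

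Markers of other cells and tissue moved in the same comparison, and their part in the results above was not tested. The lowest and highest mean level over a list, in NSt-Vin and then St-Vin, show how far the punches differed. Oligodendrocyte and myelin genes were higher for 24 of 25 measured genes (median 0.43, 9.55 to 9.92 against 9.78 to 10.21). Of the 25, 0 passed, beside 0.505% of all probe sets. Mbp, the myelin basic protein, measured 11.54, 11.21 and 11.23 against 11.97, 11.92 and 11.52 (0.48 ± 0.13, limma adjusted p = 0.118). NSt-Vin 1 and St-Vin 3 overlapped for Mbp, and 4 of the 25 genes were higher without overlap, beside 8.76% of all probe sets.

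Cilia genes of the ependyma, the lining of the ventricles, were lower for 16 of 17 measured genes and 13 did not overlap, beside 16.5% lower without overlap among all probe sets (median -0.32, 6.47 to 6.64 against 6.09 to 6.225). Drc12, a part of the ciliary dynein regulatory complex, passed, with 7.18, 7.33 and 7.48 against 6.66, 6.21 and 6.58 (-0.85 ± 0.14, limma adjusted p = 0.0450). Dynlrb2 (-0.69 ± 0.13, adjusted p = 0.0517) and Ak7 (-0.88 ± 0.19, adjusted p = 0.0723) were lower in all St-Vin pools and did not pass. Of 21 choroid plexus genes, 16 were lower (median -0.087, 7.32 to 7.38 against 6.67 to 7.42). Ttr, the thyroid hormone carrier of choroid plexus, measured 11.90, 12.26 and 12.21 against 9.43, 7.38 and 10.43 (-3.04 ± 1.38, adjusted p = 0.261). Stressed pools held less of it in every array and were widely spread. The SE and p of choroid plexus genes also rest on spread in the control lineage, where list means ran from 7.07 to 9.42 in NSt-Con.

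Markers of other hippocampal fields were lower too. Of 16 markers of pyramidal cells in CA3 and CA2, 14 had lower means (median -0.32, 8.24 to 8.59 against 7.79 to 8.21). Grik4, a kainate receptor subunit, had -0.83 ± 0.35 with overlapping groups (limma adjusted p = 0.237), and -1.14 to -0.54 when 1 array was left out. Of 9 dentate granule cell genes, 7 were lower (median -0.16, 7.78 to 8.27 against 7.49 to 7.98), and Prox1 had -0.84 ± 0.36 (adjusted p = 0.242), between -1.25 (without St-Vin 3) and -0.44 (without NSt-Vin 3) when 1 array was left out. None of these 25 genes passed. Among 10 CA1 genes 7 were higher (median 0.125, 8.09 to 8.46 against 8.20 to 8.51), and Wfs1 differed by 0.18 ± 0.48 (adjusted p = 0.862), from -0.16 without NSt-Vin 3 to 0.525 without St-Vin 3. Of 14 genes of cortical layers 10 were higher (median 0.19, 7.83 to 8.09 against 8.09 to 8.22), as were 11 of 15 of the subiculum (median 0.13, 7.45 to 7.89 against 7.71 to 8.17). Nr4a2, which marks deep cortical cells and is also an immediate early gene, was higher in all St-Vin pools (1.29 ± 0.40, adjusted p = 0.139). Rasgrf2, listed among the cortical genes, was lower in all of them (-1.69 ± 0.43, adjusted p = 0.0980). Of 10 markers of oligodendrocyte precursors 8 were higher (median 0.13), and 15 of 21 interneuron markers were lower (median -0.063), with 0 calls in both. Microglia (11 higher and 12 lower of 24, median -0.0017) and endothelium (11 and 12 of 23, median -0.0033) lay close to the median of all probe sets.

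**Figure D3:**
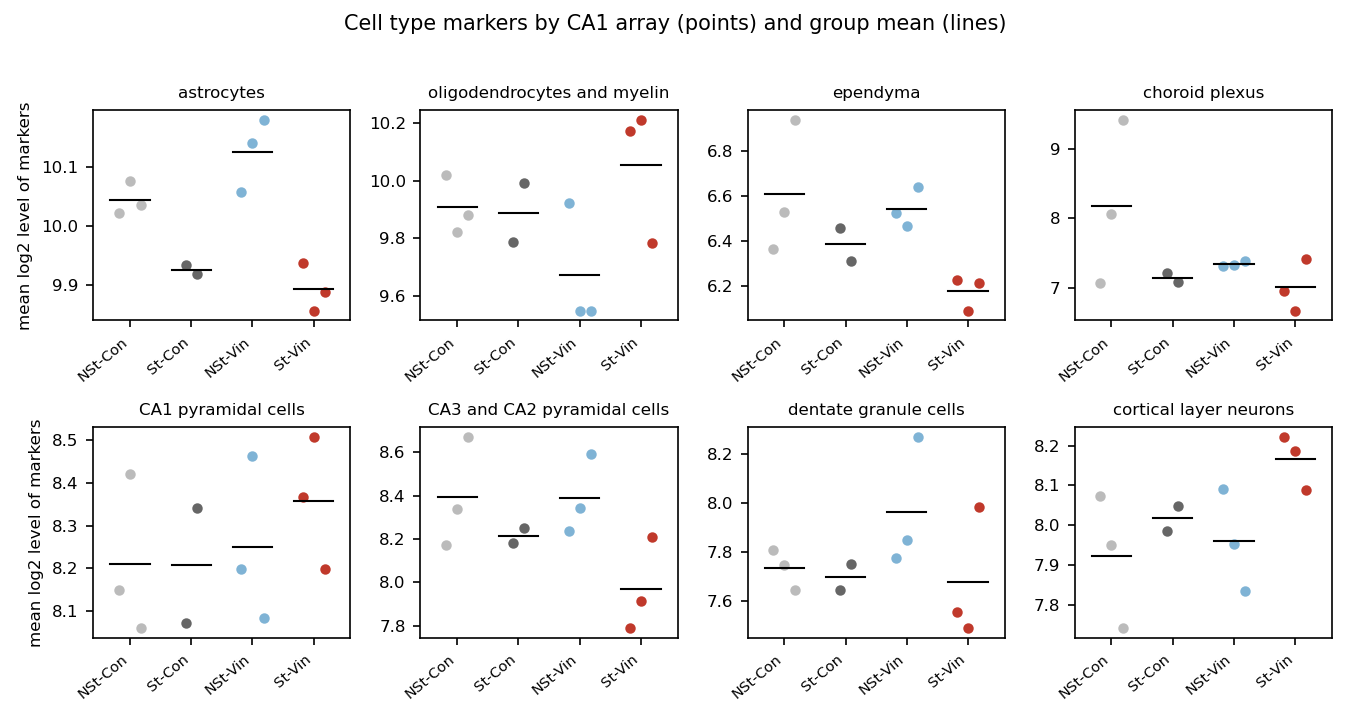
Each panel shows the mean log2 level of a list of cell type markers (y axis, own scale) in the 11 CA1 arrays by group (x axis), with points for arrays and lines for group means. Astrocyte, ependyma and CA3 and CA2 means are lower in all 3 St-Vin arrays than in all 3 NSt-Vin arrays, while myelin and dentate means overlap, and choroid plexus is high in 2 NSt-Con arrays.

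Genes that neurons switch on when active were higher for 17 of 23 measured genes (median 0.22), with 0 calls. Dusp1 (0.91 ± 0.38), Nr4a1 (0.77 ± 0.35) and Egr1 (0.66 ± 0.45) had limma adjusted p-values of 0.234, 0.264 and 0.444, and in each the groups overlapped. Jun was lower in every St-Vin pool (-0.38 ± 0.091, adjusted p = 0.0842). NSt-Vin 3 was the lowest of the 6 pools for Egr1 (8.44), Arc (8.14) and Npas4 (7.31). Of 14 circadian clock genes 13 were higher (median 0.14) and Cry1 alone was lower; none passed. Bdnf, the growth factor of hippocampal plasticity, measured 7.66, 7.63 and 7.90 against 7.36, 7.27 and 7.61, lower in every St-Vin pool without passing (-0.32, adjusted p = 0.177).

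Ion channels, adhesion molecules and chromatin enzymes gave 0 calls, with single members near the threshold. With 0.505% of all probe sets called, 0 calls do not set these lists apart. Kcnq5, a potassium channel subunit that damps firing, measured 9.59, 9.41 and 9.80 in NSt-Vin and 8.66, 8.55 and 9.12 in St-Vin (-0.82 ± 0.16, limma adjusted p = 0.0530). Cdh8, a cadherin of synaptic contacts, measured 9.62, 9.63 and 9.95 against 8.95, 8.76 and 9.33 (-0.72 ± 0.14, adjusted p = 0.0534). Both had non-overlapping groups. Their lists were mixed: 27 of 47 potassium channels were higher and 19 lower (median 0.037), and 8 of 20 cadherins and protocadherins were higher and 12 lower (median -0.005). Hdac8, a histone deacetylase, stood at -0.36 ± 0.073 (adjusted p = 0.0610), in a list of 22 DNA methylation and histone deacetylation genes of which 14 were lower (median -0.02). The glutamate receptor subunit Grin2c stood at -0.31 ± 0.069 (adjusted p = 0.0726) and the serotonin receptor Htr1a at -0.57 ± 0.16 (adjusted p = 0.113), both lower in every St-Vin pool.

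Genes of sex steroid signalling, the system on which vinclozolin acts, lay near all probe sets. Of 11 measured genes 6 were higher and 5 lower (median 0.037), and 0 passed. Hsd17b4 and Hsd17b1, which convert sex steroids, were lower in every St-Vin pool by 0.13 and 0.10 on average (limma adjusted p = 0.224 and 0.277), and the estrogen receptor gene Esr1 differed by -0.050 ± 0.058 (adjusted p = 0.662). Of 14 genes of CRH and other stress peptides 8 were higher and 6 lower (median 0.013). Crh itself, the peptide that starts the hormonal stress response, measured 6.69, 6.51 and 6.33 against 6.61, 6.46 and 6.34 (-0.040 ± 0.094, adjusted p = 0.845). The groups overlapped for Crh.

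**Figure D4:**
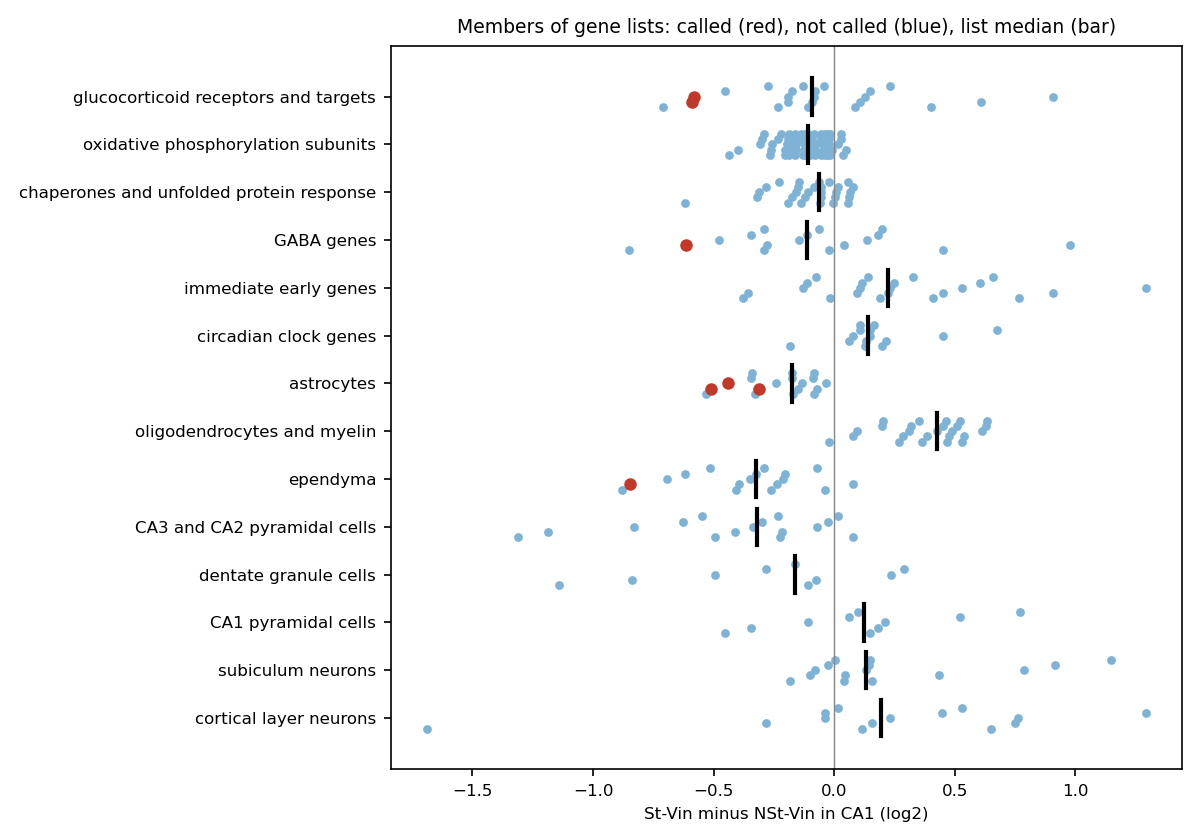
Each point is 1 gene of a list (1 line per list) at its St-Vin minus NSt-Vin difference in CA1 (log2, x axis), red where called, and black bars are list medians. Astrocyte genes all lie left of 0 and all but 1 of the myelin genes right of it, with called genes only among glucocorticoid, GABA, astrocyte and ependyma lists of those drawn.

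Stress in the control lineage was measured with 3 NSt-Con and 2 St-Con arrays, which lie on 1 scan day and share no array with the comparison above. Their pools are cage mates of the Vin pools, so the lineages are not independent. Deviations from group means of cage-mate pools correlated at 0.521, 0.115 and 0.535 without stress and at 0.279 and 0.18 with it. Such values were not particular to cage mates. Same-numbered NSt-Vin and St-Vin pools, which share no cage, correlated at 0.474, -0.0609 and 0.488. With only 2 St-Con arrays the deviations mirror each other, so crossed St-Con and St-Vin pools gave -0.279 and -0.18. In the control lineage 0 probe sets passed limma (889, or 3.25%, at an unadjusted p under 0.05). Of the 138 probe sets called in the vinclozolin lineage, 124 had the same sign in the control lineage, which is 89.9%, beside 63.0% of all probe sets. Without the NSt-Con arrays rich in choroid plexus, which leaves NSt-Con 1 alone as the non-stressed side, it was 108 (78.3%), beside 56.7%. The size was smaller: the 112 lower calls had a median of -0.41 in the vinclozolin lineage and -0.10 in the control lineage, and the 26 higher calls 0.45 and 0.13. The first of each pair of medians was fixed by the choice of probe sets and cannot be set against the other as evidence of a lineage difference. Prodh stood at -0.41 ± 0.080 in the control lineage, Anxa6 stood at -0.50 ± 0.18 and the first Mt2A probe set at -0.36 ± 0.12. Hsd11b1 stood at -0.19 ± 0.093, Gabrg1 at -0.037 ± 0.11, and Sh3bp4 at -0.14 ± 0.074, opposite to its rise in the vinclozolin lineage.

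The difference between the lineages' stress effects was tested itself, as an interaction. No probe set passed limma (1124, or 4.11%, at an unadjusted p under 0.05), and the lowest adjusted p was 0.509, for Sh3bp4. Whether any named gene responds differently in the vinclozolin lineage was therefore not shown, and a p that misses the threshold does not show that the lineages respond alike. Among the 11 arrays fitted only the St-Vin arrays were scanned on day 4 (the St-Con array left out was the other), so the interaction and scan day cannot be told apart.

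The same animal pools also gave CA3 and amygdala arrays, in which stressed and non-stressed vinclozolin pools were scanned on a single day per area. A joint fit of all 4 areas, with the pool as a random block, gave 0 calls for stress in the vinclozolin lineage in CA3 (2852 probe sets, or 10.4%, at an unadjusted p under 0.05), 0 in the amygdala (745, 2.72%) and 0 in motor cortex (678, 2.48%), where the groups share only part of their scan days. For CA1 the joint fit called 1586 (5.8%). Of the 138 CA1 calls, 77 (55.8%) had the same sign in CA3, beside 48.6% of all probe sets, and 72 (52.2%) in the amygdala, beside 48.2%. Hsd11b1 differed by -0.097 ± 0.13 in CA3 and -0.080 in the amygdala, and the first Mt2A probe set by -0.20 ± 0.13 and -0.12. Prodh was at -0.11 ± 0.073 in CA3, and Rxfp1 at 0.063 ± 0.15. These genes were chosen by their CA1 difference, so its being the farthest from 0 is fixed by that choice.

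That difference was tested for all probe sets. The stress difference in CA1 and that in CA3 differed in 387 probe sets (1.42%), 172 higher (0.629%) and 215 lower (0.786%) in CA1. Between CA1 and the amygdala it differed in 70 (0.256%), 24 higher (0.0878%) and 46 lower (0.168%). Leaving out 1 of the 6 CA1 arrays in turn gave 75 (without St-Vin 2) to 665 (without NSt-Vin 1) for CA3 and 2 (without St-Vin 1) to 306 (without St-Vin 3) for the amygdala. Among the genes above, Sh3bp4 (0.88 ± 0.14, limma adjusted p = 0.00465), Igfbp5 (0.90, adjusted p = 0.00904), Eif4e3 (-0.69, adjusted p = 0.0200) and Prodh (-0.40, adjusted p = 0.0375) differed between CA1 and CA3. Hsd11b1 (-0.48, adjusted p = 0.150), Mt2A (-0.52 and -0.45, adjusted p = 0.110 and 0.194), Gabrg1 (-0.54, adjusted p = 0.0813) and Tgfb2 (0.75, adjusted p = 0.160) did not pass that test. Nr3c1, not called in CA1 alone, passed it, at 0.40 in CA1 and -0.25 in CA3 (0.66, adjusted p = 0.0478). These area differences contain the same CA1 scan days as the comparison itself.

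**Figure D5:**
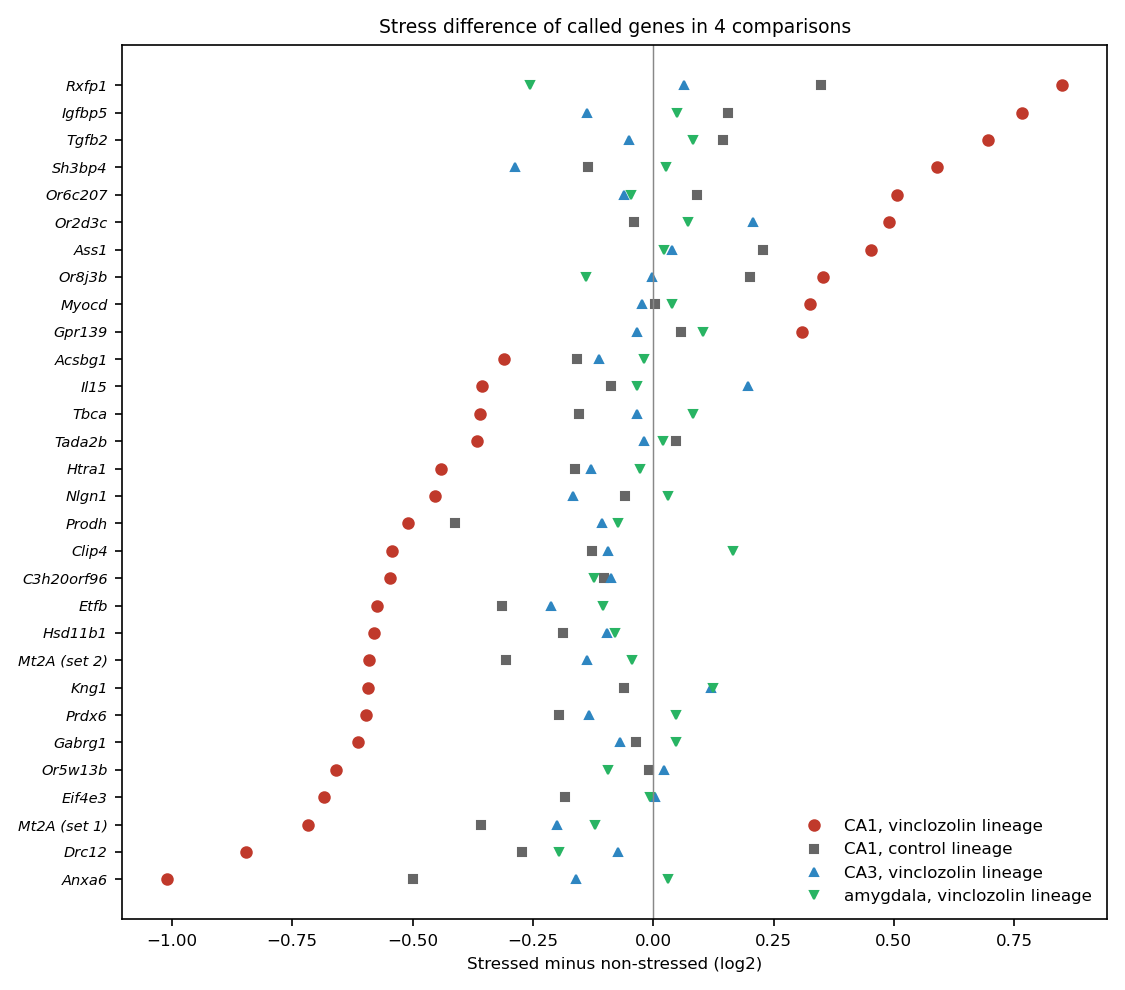
Each line is a called gene with its stressed minus non-stressed difference (log2, x axis) in CA1 of the vinclozolin lineage (circles), CA1 of the control lineage (squares), CA3 (triangles pointing up) and the amygdala (triangles pointing down) of the vinclozolin lineage; Mt2A has 2 probe sets. The circles were chosen by their test, and squares, such as -0.50 for Anxa6 and 0.35 for Rxfp1, mostly lie between them and 0.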

How the data were processed

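The deposited values are log2 signals that the authors made with RMA in Partek, per the submitters' processing notes (no versions are stated there). RMA scales arrays to one another and can compress differences of dim probe sets. The deposited CA1 arrays were still not on one distribution. Their medians ranged from 7.11 to 7.17, and further scaling changed the count of calls. Precision is limited by the number of arrays, and p-values measure spread between pools.

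The 11 CA1 arrays of 4 groups were fitted with limma 3.58.1 in R 4.3.3 (lmFit, eBayes; two-sided; 7 residual degrees of freedom), with Benjamini-Hochberg adjustment over 27342 probe sets and a threshold of 0.05. Areas were compared in 1 fit of 46 of the 48 arrays with the pool as a random block (duplicateCorrelation, statmod 1.5.0). Left out were the third CA1 St-Con and the second motor cortex NSt-Vin array, each equal to the mean of the other arrays of its group within 0.0051. Scripts were tested on simulated data.

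Platform annotation gave 1 symbol to 15097 probe sets, several to 323 and none to 11922. A list takes, per symbol, the probe set with the highest CA1 mean. Updating symbols to those of RefSeq changed 0 of them. The comparison and the gene lists were chosen with earlier results of these data known, so lists got no test. Named genes are the 12 highest and 12 lowest calls with 1 symbol, list members past the threshold (otherwise the 2 smallest p-values), fixed control and marker genes, and the 3 smallest p-values of the interaction and area differences. Other genes given with values were chosen after those were seen. Promoters come from RefSeq's table for GRCr8. Alternatives were the arrays fitted, a filter on dim probe sets, scaling, array weights, blocks and leaving out each array.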

Additional observations from a re-analysis of the deposited data

Results flagged for a closer look

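The stress difference of the vinclozolin lineage differed between CA1 and other areas of the same pools, by limma's test of the difference itself, in 387 probe sets for CA3 and 70 for the amygdala. The following log2 values are CA1 minus the other area, for genes chosen by the naming rule that passed that test.

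Against CA3, Sh3bp4 stood at 0.88, Igfbp5 at 0.90, Rxfp1 at 0.79, Nr3c1 at 0.66, the glutamate receptor gene Grm3 at 0.62, Or6c207 at 0.57, the purinergic receptor gene P2rx7 at 0.51, the deacetylase gene Sirt2 at 0.49, the ribosomal protein gene Rplp2 at 0.46, Myocd at 0.35 and Gpr139 at 0.34. Lower in CA1 than in CA3 were Lum, a proteoglycan of leptomeninges (-1.27), Anxa6 (-0.85), Eif4e3 (-0.69), Or5w13b (-0.68), Il15 (-0.55), Prodh (-0.40), Tada2b (-0.35) and Tbca (-0.33).

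Against the amygdala, Rxfp1 stood at 1.11, P2rx7 at 0.65 and Or8j3b at 0.49. Anxa6 stood at -1.04, Lum at -1.03, Clip4 at -0.71, Eif4e3 at -0.68, Prdx6 at -0.64, Tbca at -0.44 and Prodh at -0.44. Of the genes given outside that rule, Bace2 (-0.55 against CA3, -0.58 against the amygdala), Adora2b (-0.43 and -0.48) and Adra1d (-0.37 and -0.38) passed both tests, and Angpt1 (-0.72) and Tert (-0.42) passed that against CA3. P2rx7, Lum, Nr3c1, Grm3, Sirt2 and Rplp2 were not called in CA1 alone. CA1 arrays of stressed and non-stressed pools were scanned on different days, and those of CA3 and the amygdala on 1 day per area.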

How the results depend on the processing

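The 138 calls kept their sign in every setting run (under the filter, the 103 still tested), but their number did not hold. Where arrays were left out the sign was fixed in advance, since the groups stood apart in all 138. It was 752 with all 12 CA1 arrays, 0 with only the 6 arrays compared, 305 without the NSt-Con arrays rich in choroid plexus, 16 after a filter at the 30th percentile, 3745 with array weights, 44 after quantile normalization, 4 after centring arrays on their medians and 1586 in 1 fit of all areas. It was 0 (673 at an unadjusted p under 0.05) with scan day as a block, where day 4 holds beside St-Vin only the array that equals a mean. Leaving out 1 array gave 0 to 272. Htra1, Acsbg1, Kng1, Il15, Gpr139 and Or8j3b passed in 0 of the fits without 1 array. The replicate numbers do not pair the groups, since they mark different dyad groups, and deviations of same-numbered arrays correlated at 0.474, -0.0609 and 0.488. As a replicate block they gave 2008 calls, and the dyad group as a block gave 119. For the interaction, 0 calls became 1 with array weights and 28 with the replicate block by number, and stayed 0 elsewhere. The 387 calls of CA1 minus CA3 became 229 with no replicate block, 659 with all 48 arrays and 75 to 665 without 1 array. The 70 of CA1 minus amygdala became 40, 182 and 2 to 306. The causes were not tested. Of the named genes, for which single values were recomputed, 6 turned sign, none of them called. Wfs1 (0.18) gave -0.079 with array weights and -0.16 to 0.525 without 1 array. Actb (0.0067) gave -0.030 with array weights and -0.028 to 0.042 without 1 array. Gapdh (-0.013) gave 0.010 after centring and -0.043 to 0.012 without 1 array. Without 1 array, Crh ranged from -0.13 to 0.050, Dnmt3a from -0.050 to 0.085 and Dnmt1 from -0.068 to 0.122.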
